A study of Mus musculus with 96 samples.

Results

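The cytosolic ribosomal protein genes encode the proteins of the large subunit (named RPL) and of the small subunit (named RPS) of the ribosome that translates nuclear-encoded messages. They were taken as the protein-coding genes of the count table whose mouse symbol is Rpl or Rps followed by a digit, together with Rplp0, Rplp1, Rplp2 and Rpsa, leaving out pseudogene names and the S6 kinases. This rule gave 86 of the 39179 genes in the table. By name and known role, 46 were core large-subunit genes, 31 were core small-subunit genes, 8 were paralogs of a core gene (Rpl3l, Rpl7l1, Rpl10l, Rpl22l1, Rpl36al, Rpl39l, Rps27l and Rps27rt) and 1, Rps19bp1, encodes a protein that is not a ribosomal protein but binds RPS19. After the filter on low counts 83 members were tested in 12 of the 13 comparisons and 82 in the slope over CAG length at 6 months.

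The samples were 96 messenger RNA libraries from the cerebellum of C57BL/6 mice, female and male, at 6 or 10 months of age. The mice were heterozygous for a knock-in allele of Htt, the Huntington's disease gene, with CAG repeats of nominally 20, 50, 92 or 140 units (Q20, Q50, Q92 and Q140), or were wild type. Q92 and Q140 mice were housed with mice of their own genotype, and the wild types shared cages with Q20 mice or with Q50 mice, so no wild type shared a cage with Q92 or Q140 mice. Each of the 12 groups of genotype, housing and age held 8 libraries, 4 from each sex. The mice carried the allele in every cell and the tissue was taken whole, so the values average over neurons, glia and vessels. In such bulk tissue, fewer cells of a type and less RNA per cell cannot be told apart. The labels do not say that every library came from a separate animal, so the p-values measure the spread between these libraries.

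Most core ribosomal proteins are needed in equimolar amounts, since each occupies its own place in the ribosome. The messages of ribosomal protein genes are among the most abundant of most cells. Their messages usually begin with a cytosine followed by a run of pyrimidines, the terminal oligopyrimidine tract, through which mTORC1 signalling and the RNA-binding protein LARP1 control their translation and stability. Being short and abundant, these messages have been copied back into the genome many times as intronless processed pseudogenes, so that a short read from a ribosomal protein message can match several annotated genes.

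Library totals ran from 29957797 to 39477325 estimated counts, with a median of 34251076. Markers of the cerebellum were high in every library: 8 Purkinje cell markers such as Pcp2 summed to 5110 to 11966 CPM (counts scaled to library depth) and 8 granule neuron markers such as Gabra6 to 2583 to 5899 CPM, whereas 10 choroid plexus markers such as Ttr varied between 27.7 and 4191 CPM. Htt itself averaged 261 CPM in Q140 libraries against 261 CPM in Q20 libraries at 6 months, and 260.2 CPM in Q140 against 303 CPM in Q20 libraries at 10 months, a log2 difference of -0.22 with an adjusted p of 0.117 by edgeR. The nearest member to Htt on chromosome 5 was Rpl9, 30.5 Mb away. 12 libraries lay far from the rest of their age on the first principal component of all genes tested (over 3 median absolute deviations from the median). Of these, 11 were at 6 months, namely 4 of Q20, 2 of Q50, 1 of Q140, 2 of the wild types of Q20 cages and 2 of the wild types of Q50 cages, and none was of Q92. The other was Q92 female 2 at 10 months, in which mitochondrially encoded genes took 12.7% of counts.

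The genomic sequence around the annotated start was available for 66 of the 86 members (RefSeq, GRCm38.p6, 250 bases before to 50 after each start, 78 windows). Within 20 bases of the start, a run of at least 10 pyrimidines (C or T) stood in 23 of the 78 windows of members, 29.5%, against 2481 of 32851 windows of all genes, 7.55%. The letters CCGGAAG, a core match of ETS family factors searched on both strands of the whole windows, stood in 34.6% of the members' windows against 8.86% of all windows. AAGATGGC, the core match of YY1, stood in 10.3% against 2.75%, and TATAAA in 8.97% against 13.6%. The 60 bases from 40 before to 20 after the start are shown for the 5 core genes with the highest covariation that had a window, and for Rps15a, the gene with the lowest covariation, with the longest pyrimidine run within 20 bases of the start in capitals.
Rpl13a, chr7:45128726-45128785, minus strand: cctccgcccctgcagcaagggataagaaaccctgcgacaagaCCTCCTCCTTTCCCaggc
Rpl19, chr11:98026884-98026943, plus strand: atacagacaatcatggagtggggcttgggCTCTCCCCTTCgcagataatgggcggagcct
Rpl14, chr9:120571477-120571536, plus strand: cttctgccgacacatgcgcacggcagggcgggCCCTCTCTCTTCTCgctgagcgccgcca
Rps9, chr7:3704001-3704060, plus strand: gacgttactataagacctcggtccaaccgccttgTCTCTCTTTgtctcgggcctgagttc
Rps19, chr7:24884873-24884932, plus strand: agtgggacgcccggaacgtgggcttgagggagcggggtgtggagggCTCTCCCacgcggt
Rps15a, chr7:118116128-118116187, minus strand: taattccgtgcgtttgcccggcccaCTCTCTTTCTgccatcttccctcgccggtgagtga
The run was 14 bases in Rpl13a, 11 in Rpl19, 14 in Rpl14, 9 in Rps9, 7 in Rps19 and 10 in Rps15a, so the gene with the lowest covariation had a run of a length like those of the genes with the highest. The match is to an annotated start and is a description of these letters only.

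Ribosomal protein messages were abundant in the cerebellum. The 76 tested core genes had a median of 133 FPKM (fragments per kilobase of transcript and depth-scaled, a level that can be compared between genes), against 6.82 FPKM over all 17384 genes tested across the ages. The highest by FPKM were Rps24 (337 ± 59.4 FPKM, SD over the 96 libraries), Rpl26 (303 ± 55.5), Rps29 (303 ± 67.1), Rplp1 of the stalk (282 ± 68.4), Rpl23a (260.4 ± 38.1) and Rpl13a (251 ± 51.4). This order depended on the length used. By counts per kilobase of annotated exons Rplp1 ranked 1 and Rps24 ranked 56 of the 86 members. Rps24 and Rpl26 differed by less than their spread over libraries, as did Rpl26 and Rps29. All members together took 0.686% to 1.46% of counts at 6 months (median 0.782%) and 0.727% to 1.21% at 10 months (median 0.768%). The 6 lowest were Rpl31 (8.77 ± 3.12 FPKM), Rps13 (8.67 ± 3.36), Rpl3l (0.159 ± 0.0726), Rpl39l, Rps27 and Rpl10l. The last 3 were not tested. Rpl10l, a testis paralog of Rpl10, had no count in any library; a count of 0 allows up to 3 counts in a library, covering counting error only. Rpl39l had counts in 40 libraries, at most 6, and Rps27 in 4, at most 3.

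The apparent level of a core gene differed with the share of its signal booked on near-identical copies. Annotated genes outside the members that share over 50% of their 50-base words with a member were called its copies, and 67 of the 86 members had them, 197 copies in all, mostly processed pseudogenes. Among the 55 tested core genes with over 90% of the counts of gene and copies on the gene itself, levels spanned 60.9 to 337 FPKM. Among the 12 with under 50% on the gene, they spanned 8.67 to 81.2 FPKM. RPS6, the small-subunit protein phosphorylated by S6 kinases, illustrates this: Rps6 averaged 9.45 CPM over all libraries and held 4.75% of the counts of gene and copies, while the intronless Rps6-ps4 averaged 187 CPM at 10 months and 192 CPM at 6 months. Likewise Rps13 held 6.86%, Rpl31 8.29%, Rpl27 9.74%, Rpl12 11.5%, Rpl28 15.3%, Rpl5, part of the 5S particle, 20.07% and Rpl10 24.9%. The low FPKM of these genes in the authors' deposited table is therefore uncertain as a level of the message. The 2 orders, by FPKM and by counts per kilobase of annotated exons, shared 3 of their 6 highest and 5 of their 6 lowest members, with a Spearman correlation across the 86 genes of 0.86.

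**Figure D1:**
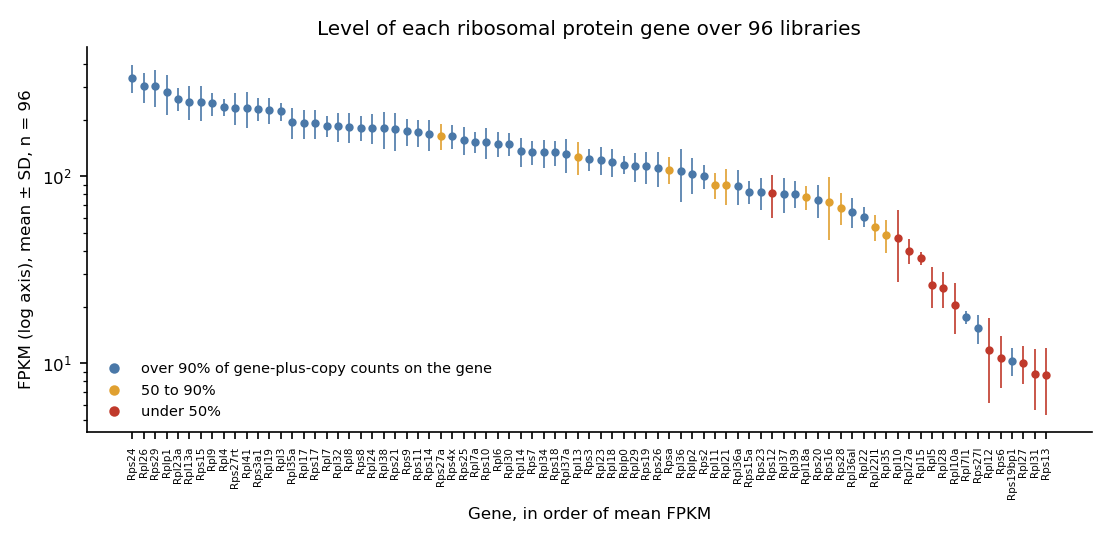
Mean FPKM (log axis) of 81 members with a mean above 0.5 FPKM, with the SD over 96 libraries as bars, in order of level. Genes with under 50% of gene-plus-copy counts on the gene itself lie mostly at the low end, from 8.67 to 81.2 FPKM.

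The paralogs sat at very different levels beside their parents. Rps27rt, a retrotransposed form of Rps27 on chromosome 9, ran from 179 to 458 FPKM with a median of 220 FPKM, and Rps27 on chromosome 3 from 0 to 0.323 FPKM with a median of 0. The pair shares 91.1% of the 50-base words of Rps27rt, so reads of one can be booked on the other, and the split is uncertain. Rps27l, another member of that family, which responds to p53, had a median of 14.8 FPKM (11.4 to 27.2). Rpl22l1 had a median of 50.9 FPKM (43.4 to 94.2) beside 59.0 FPKM for Rpl22 (52.7 to 99.7), the closest pair. Rpl36al had 61.1 FPKM (49.2 to 126) beside 83.3 FPKM for the X-linked Rpl36a (68.7 to 192). Rpl7l1, a nucleolar relative of Rpl7, had 17.5 FPKM (15.2 to 23.2) beside 178 FPKM for Rpl7 (147 to 300.1), and its range did not overlap that of Rpl7. The muscle paralog Rpl3l had 0.149 FPKM (0.0289 to 0.352) beside 218 FPKM for Rpl3 (154 to 341). Rpl39l and Rpl10l were near or at 0 beside 77.6 FPKM for Rpl39 and 41.3 FPKM for Rpl10.

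Core genes rose and fell together from library to library. After the mean of each of the 24 groups of genotype, housing, age and sex was removed, the Pearson correlation of a core gene with the mean of the other core genes had a median of 0.94 across the 96 libraries, and it was above 0.9 for 51 of 76. These correlations describe libraries that share depth and preparation and carry no p. Among the highest were Rpl13a (0.99), Rpl8 (0.98), Rpl19 (0.98) and Rpl14 (0.98). Among the smallest SDs of the deviation from the core mean, on the log2 CPM scale, were those of Rpl19 (0.034), Rps9 (0.036), Rpl13a (0.038) and Rpl14 (0.038). The largest SDs, among members of at least 1 FPKM, were those of Rps13 (0.44), Rps6 (0.37), Rps16 (0.35), Rps12 (0.32) and Rpl12 (0.28). Without removal of group means the median was 0.93, and without the 12 far libraries the within-group median was 0.72.

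Core genes with most counts on copies followed the others less closely. Among the 55 core genes with over 90% of counts on the gene, 47 had a correlation above 0.9. With 50 to 90% on the gene it was 4 of 9, and with under 50% it was 0 of 12. The 12 core genes with under 50% of their counts on the gene had correlations from 0.32 to 0.84 with a median of 0.62, including Rps6 (0.32), Rps12 (0.35) and Rps13 (0.47). When the counts of the copies were added to the gene, an alternative chosen after the data were seen, all 12 rose, to between 0.93 and 0.98 with a median of 0.97, and 71 of the 76 core genes were above 0.9. Rps6 then had 0.97, Rps12 0.98 and Rps13 0.97. These values are over all 96 libraries. Without the 12 far libraries the 12 genes alone had a median of 0.36, and no value with copies added is given for that setting. Rpl23a, with 92.8% of its counts on the gene, had 0.59 alone and 0.97 with copies added over all 96 libraries. Rps15a stayed low: 99.98% of its counts lay on the gene, and its correlation was 0.22 alone and 0.25 with copies added. Its CPM ran from 134.5 to 194 with a median of 157 at 6 months and from 144 to 192 with a median of 160.4 at 10 months, a narrower range than that of most members, and on the log2 scale it moved by 0.12 for each unit of the core mean. The members below 0.9 after copies were added were, beside Rps15a, the stalk proteins Rplp1 (0.86) and Rplp2 (0.82), Rpl36 (0.82) and Rpl22 (0.84). The muscle paralog Rpl3l, with few counts, had 0.24 alone.

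**Figure D2:**
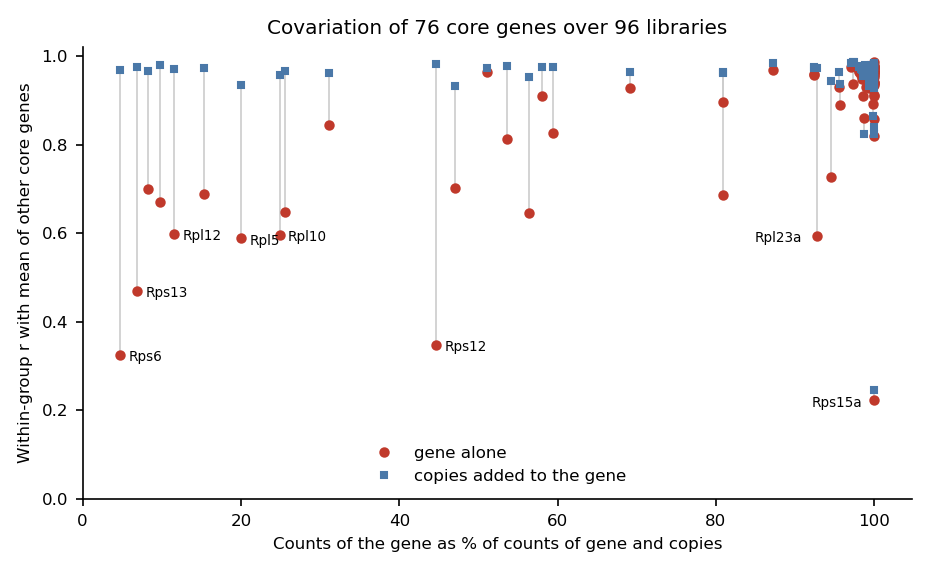
Within-group correlation of each of 76 core genes with the mean of the other core genes over 96 libraries, for the gene alone (circles) and with the counts of its copies added (squares), against the share of gene-plus-copy counts on the gene. Grey lines join the values of a gene, and only Rps15a stays near 0.25 with copies added.

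The genes outside the members that tracked the core mean most closely were Pfdn5, a prefoldin subunit (0.97), Rack1, a scaffold of the small subunit (0.97), Psmb4 of the proteasome (0.96), Tomm7 of mitochondrial import (0.96), Atp5o of ATP synthase (0.96), Ndufb10 and Ndufb9 of respiratory complex I (0.96 each) and Eef1b2, an elongation factor (0.96). In all, 211 of 13156 genes with a mean of at least 1 on the log2 CPM scale exceeded 0.9. Of the same 13156 genes, 777 exceeded 0.8 and 1343 lay below -0.8, among them Htt (-0.96). Strong correlation of either sign was thus common among genes outside the members. The 77 mitochondrial ribosomal protein genes had a median of 0.81. The 16 non-ribosomal genes with known terminal oligopyrimidine messages, such as Tpt1 and Eef1a1, had a median of 0.75, against 0.32 for 28 ribosome biogenesis factors such as Fbl and -0.76 for 12 genes of mTORC1 and TOP regulation such as Mtor and Larp1. Across the 96 libraries the within-group core mean also correlated with the share of counts from mitochondrially encoded genes (r = 0.66, Spearman 0.49, and r = 0.63 without the 2 farthest libraries), with the mean level of 6 microglial markers (r = 0.60, 0.45 and 0.43) and, inversely, with that of 8 granule neuron markers (r = -0.53, -0.36 and -0.46). Its correlation with the mean level of 5 red blood cell markers was close to that with the microglial markers (r = 0.59, 0.43 and 0.43). It did not follow the choroid plexus markers (r = 0.037, Spearman 0.029). At 6 months its correlation with the first principal component was 0.96 (Spearman 0.94). The part of these measures in the covariation was not tested.

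The level of the core genes as a group is shown by library in the plot of core means. At 6 months the mean log2 CPM of the 76 core genes averaged 6.43 ± 0.31 in wild types of Q20 cages, 6.32 ± 0.19 in wild types of Q50 cages, 6.51 ± 0.29 in Q20 libraries, 6.32 ± 0.17 in Q50 libraries, 6.28 ± 0.08 in Q92 libraries and 6.28 ± 0.19 in Q140 libraries (SD, n = 8 each). At 10 months it averaged 6.22 ± 0.04 in wild types of Q20 cages, 6.26 ± 0.07 in wild types of Q50 cages, 6.30 ± 0.09 in Q20 libraries, 6.23 ± 0.05 in Q50 libraries, 6.33 ± 0.25 in Q92 libraries and 6.24 ± 0.03 in Q140 libraries. All groups of an age overlapped. The SD within groups of 4 was 0.20 at 6 months, and 0.08 among the 37 libraries that were not far on the principal component. At 6 months the 11 far libraries had core means from 6.42 to 7.16, and 7 of them lay above all 37 others.

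**Figure D3:**
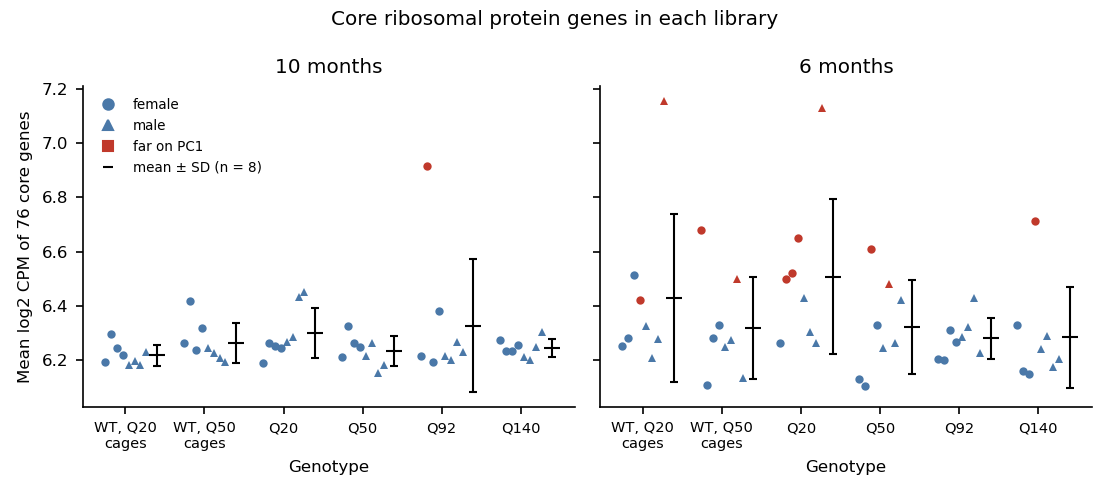
Mean log2 CPM of 76 core genes in each library (female circles, male triangles), with the mean ± SD of each group of 8, for 10 months (left) and 6 months (right). Red symbols are the 12 libraries far on the first principal component. They include the highest libraries of both ages, and 4 of the 8 Q20 libraries at 6 months.

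In Q140 against Q20 cerebellum at 6 months no member passed the test, although nearly all were lower in Q140. Of 83 members, 78 were lower and the median log2 difference was -0.24, a fold of 0.847, against -0.01 over all 17120 genes tested. By edgeR 0 members were called, where 28 of all genes, 0.164%, were called. At an unadjusted p under 0.05 there were 48 members, 57.8%, against 23.2% of all genes, and DESeq2 and limma also called 0. Rpl3, a large-subunit protein near the peptidyl transferase centre, had 264 to 302 CPM with a median of 285 in Q140 libraries, against 283 to 445 CPM with a median of 327 in Q20 libraries. The ranges overlapped, and its log2 difference was -0.24 ± 0.07 (SE, adjusted p = 0.112). Rpl28, a large-subunit protein, had 11.7 to 18.7 CPM with a median of 15.01 in Q140, against 14.6 to 30.9 CPM with a median of 20.0 in Q20, again overlapping, and -0.39 ± 0.14 (adjusted p = 0.153). Large-subunit core genes had a median of -0.24, small-subunit core genes -0.25 and the 6 tested paralogs -0.20, while the 12 genes with most counts on copies had -0.10.

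The result depended on single libraries. Without Q140 female 4, whose core mean of 6.71 stood apart from 6.15 to 6.33 in the other Q140 libraries, 5 members were called lower (Rpl3, Rps26, Rpl41, Rps10 and Rplp1, adjusted p from 0.0443 to 0.0492) and the median was -0.32. In that fit 834 of all genes, 4.85%, were called, and 2.7% were called lower. Without Q20 male 4, whose core mean was 7.13, the median was -0.12. Without all 12 far libraries the median was -0.09 and 0 members were called. The principal component followed the core mean, so leaving these libraries out removes libraries high in ribosomal protein messages. Within Q20 and within Q140 at 6 months, the far libraries carried the highest library numbers of their group. This was not so in Q50 libraries or in wild types of Q50 cages. In the Q20 and Q140 groups, being far and a late library number cannot be told apart. Oligodendrocyte markers moved in the same comparison: 10 of 10 were lower in Q140, 3 of them called (Mal, Aspa and Cldn11), with a median of -0.43. The 10 choroid plexus markers were all lower, with a median of -2.78 and 0 called. Their part in the result was not tested.

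In the other lists of the translation pathway 0 genes were called at 6 months, and the lists differed in sign. Among ribosomal proteins named otherwise, Rack1 stood at -0.17 ± 0.08 and Fau at -0.12 ± 0.21. Of 16 non-ribosomal TOP messages 13 were lower (median -0.12), with Tpt1 at -0.33 ± 0.11 and Eif3h at -0.14 ± 0.06. Of 77 mitochondrial ribosomal protein genes 71 were lower (median -0.16), with Mrps6 at -0.33 ± 0.10. The 35 initiation and elongation factors (median -0.05), with Eif2b3 at -0.15 ± 0.06 and Eif1ax at 0.15 ± 0.06, and the 28 biogenesis factors (median -0.03), with Rrp9 at -0.27 ± 0.09 and Nol6 at 0.15 ± 0.05, were divided, with 19 and 17 lower. Of 14 genes of mTORC1 and TOP regulation 10 were higher (median 0.05), with Larp1 at 0.12 ± 0.05 and Larp4 at 0.25 ± 0.10.

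Q92 was compared with the same Q20 libraries at 6 months. The members had a median of -0.25 with 82 of 83 lower. By edgeR, DESeq2 or limma 0 members were called, where edgeR called 2 of all genes, 0.0117%. At an unadjusted p under 0.05 there were 62 members, 74.7%, against 24.7% of all genes. Rpl7l1 had 41.1 to 48.1 CPM with a median of 45.3 in Q92 and 44.8 to 57.8 CPM with a median of 49.2 in Q20, and -0.14 ± 0.05 (adjusted p = 0.165). Rps28 had 24.2 to 27.3 CPM with a median of 25.8 in Q92 and 24.7 to 47.9 CPM with a median of 31.6 in Q20, and -0.33 ± 0.12 (adjusted p = 0.165). The ranges overlapped for both. Without Q20 male 4 the median was -0.15, and without the far libraries, none of which was of Q92, it was -0.03. In the same comparison 10 of 10 choroid plexus markers (median -1.03), 10 of 10 oligodendrocyte markers (median -0.12) and 5 of 5 red blood cell markers (median -0.49) were lower in Q92 with 0 called, and their part in the result was not tested.

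Q50 and Q20 were compared with the wild types of their own cages at 6 months. For Q50 the members' median was -0.002, with 40 higher and 43 lower and 0 called, against 2 of all genes, 0.0117%. At an unadjusted p under 0.05 there were also 0 members, against 1.03% of all genes. The smallest p belonged to Rps13 (0.40 ± 0.29, adjusted p = 1.0) and Rpl10 (0.25 ± 0.25, adjusted p = 1.0). For Q20 the median was 0.09, with 75 of 83 higher and 0 called, against 2 of all genes, 0.0117%. At an unadjusted p under 0.05 there were 3 members, 3.61%, against 6.43% of all genes. Rpl3 stood at 0.17 ± 0.07 (adjusted p = 0.67) and Rps27a, which encodes a ubiquitin fusion, at 0.24 ± 0.11 (adjusted p = 0.751). DESeq2 and limma called 0 members in both. Without Q20 male 4 the Q20 median turned to -0.04, with 67 of 83 lower, and without the wild type male 4 of Q20 cages it was 0.22, with 80 higher. Leaving out wild type female 1 or wild type male 2 of Q20 cages gave 0.05 each, and without the far libraries it was 0.0002. The Q50 median lay between -0.06 without Q50 female 3 and 0.07 without wild type female 1 of Q50 cages, so its sign changed with single libraries.

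Over the 32 knock-in libraries at 6 months, the slope of the members on CAG length had a median of -0.18 log2 per 100 CAG, with 80 of 82 sloping down. By edgeR 0 members were called (DESeq2 and limma 0), against 68 of 16741 genes, 0.406%. At an unadjusted p under 0.05 there were 58 members, 70.7%, against 27.4% of all genes. Rpl27 sloped by -0.27 ± 0.09 (adjusted p = 0.108) and Rps26 by -0.27 ± 0.10 (adjusted p = 0.117). Leaving out Q140 female 4 alone turned 0 calls into 66, all downward, with Rpl27 at -0.31 ± 0.09 (adjusted p = 0.0215), and 4048 of all genes, 24.1%, were then called, with 12.8% of all genes called downward. Leaving out Q20 male 4 gave a median of -0.10, and without the far libraries -0.06 with 0 called. Oligodendrocyte markers sloped down in 10 of 10, with 2 called (median -0.33), as did 10 of 10 choroid plexus markers (median -2.01) with 0 called, and their part in the result was not tested.

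At 10 months the members of Q140 and Q20 were close. The median was -0.05 with 74 of 83 lower. By edgeR, DESeq2 or limma 0 members were called, where edgeR called 339 of 17026 genes, 1.99%. At an unadjusted p under 0.05 there were 5 members, 6.02%, against 13.8% of all genes. Rpl27a had 41.1 to 47.0 CPM with a median of 44.8 in Q140, against 45.0 to 56.5 CPM with a median of 46.3 in Q20. These ranges overlapped, and its log2 difference was -0.15 ± 0.05 (adjusted p = 0.113). It was called without Q92 female 2, the only far library of this age (-0.15 ± 0.05, adjusted p = 0.0477). In that fit it was the 1 member called of 83, where 756 of 17082 genes, 4.43%, were called. With the counts of its copies added Rpl27a stood at -0.09 ± 0.06 (adjusted p = 0.566), 31.2% of the family's counts being on Rpl27a itself. Rpl27 had 4.30 to 6.68 CPM with a median of 5.07 in Q140 and 5.26 to 7.67 CPM with a median of 5.86 in Q20, with -0.24 ± 0.10 (adjusted p = 0.201). The members' median was -0.02 without Q20 male 4 and -0.03 without Q20 male 3. In the same comparison 5 of 10 oligodendrocyte markers were called lower (median -0.44). Of the pathway lists, 0 genes were called; Ncl (0.10 ± 0.03, adjusted p = 0.0544) and Eif1ax (0.09 ± 0.03, adjusted p = 0.0896) had the smallest p.

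The remaining comparisons at 10 months gave no called member either. In Q92 against Q20 the median was 0.05 with 73 of 83 higher and 0 called, against 34 of all genes, 0.2%. At an unadjusted p under 0.05 there were 4 members, 4.82%, against 16.1% of all genes. Rpl10a had 17.0 to 23.3 CPM with a median of 20.4 in Q92 and 21.9 to 26.2 CPM with a median of 23.1 in Q20 (-0.19 ± 0.06, adjusted p = 0.106), and its ranges overlapped. Rpl27a stood at -0.14 ± 0.05 (adjusted p = 0.168). Without Q92 female 2, whose core mean was 6.91 against 6.19 to 6.38 in the other Q92 libraries, the median was -0.05. Leaving out Q20 male 3, Q20 male 4, Q92 female 1 or Q92 female 3 gave 0.08 to 0.09. In Q50 against its wild types the median was -0.04, with 72 lower and 0 called, against 9 of all genes, 0.0529%. At an unadjusted p under 0.05 there were 0 members, against 4.80% of all genes. Rps13 had 0.44 ± 0.22 and Rpl5 -0.11 ± 0.06 (adjusted p = 1.0 for both). The Q50 median was -0.02 without wild type female 2 of Q50 cages. In Q20 against its wild types the median was 0.08, with 79 higher and 0 called, against 2 of all genes, 0.0117%. At an unadjusted p under 0.05 there were 4 members, 4.82%, against 8.82% of all genes. Rpl28 had 0.27 ± 0.09 (adjusted p = 0.459) and Rpl27 0.22 ± 0.10 (adjusted p = 0.531). The Q20 median was 0.04 without Q20 male 4 and 0.05 without Q20 male 3. The slope over CAG length had a median of -0.01, with 33 up and 50 down and 0 called, against 194 of 16747 genes, 1.16%. At an unadjusted p under 0.05 there were 3 members, 3.61%, against 11.2% of all genes. Rpl27 sloped by -0.19 ± 0.07 (adjusted p = 0.259) and Rpl5 by 0.12 ± 0.05 (adjusted p = 0.375). The slope's median ran from -0.03 without Q92 female 2 to 0.01 without Q20 male 4, so its sign changed with single libraries. DESeq2 called 0 members in these 4 comparisons, as did limma.

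**Figure D4:**
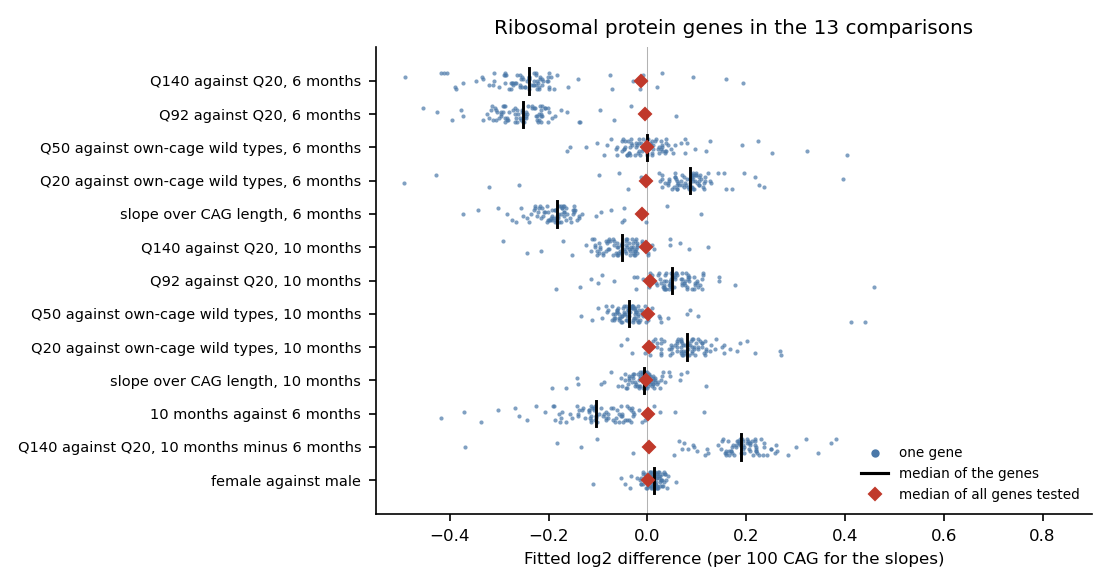
Fitted log2 difference of each tested member (points, 82 or 83 per row), their median (black line) and the median of all genes tested (red diamond) in the 13 comparisons. The members lie together below 0 in Q140 and Q92 against Q20 at 6 months (medians -0.24 and -0.25), and nearer to 0 at 10 months (-0.05 and 0.05).

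The difference between Q140 and Q20 was not shown to change with age. The interaction, 10 months minus 6 months, had a median of 0.19 over the members, with 78 of 83 above 0, and 0 members called, as of all 17384 genes, 0%. At an unadjusted p under 0.05 there were 2 members, 2.41%, against 5.16% of all genes. They were Rpl3 (0.24 ± 0.09, adjusted p = 0.791) and Rps27a (0.26 ± 0.13, adjusted p = 0.791), and limma called 0. Without Q140 female 4 the median was 0.25, and without Q20 male 4 it was 0.07.

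Ribosomal protein messages were lower at 10 than at 6 months. Of 83 members 43 were called lower and 0 higher, where 3644 of 17384 genes, 21%, were called lower and 41.3% in either direction. The differences were small: the members' median was -0.10, a fold of 0.93, and all genes had a median of 0. Rpl27 had 4.17 to 7.67 CPM with a median of 5.59 at 10 months, against 5.36 to 13.4 CPM with a median of 6.88 at 6 months. It fell by 0.34 ± 0.05 (SE) on the log2 scale with an adjusted p of 2.94e-08. Rpl13 had 81.7 to 131 CPM with a median of 92.8 at 10 months and 86.6 to 195 CPM with a median of 105 at 6 months (-0.24 ± 0.04, adjusted p = 2.2e-06). Rpl10 had 26.7 to 38.6 CPM with a median of 31.95 at 10 months and 28.9 to 124 CPM with a median of 36.5 at 6 months (-0.42 ± 0.08, adjusted p = 1e-05). Rpl10a had 17.0 to 26.2 CPM with a median of 21.7 at 10 months and 18.5 to 57.4 CPM with a median of 24.7 at 6 months (-0.26 ± 0.05, adjusted p = 3.57e-05). The ranges of the ages overlapped for each of the 4, and each was lower at 10 months in 6 of the 6 genotype and housing groups. Of the 43, 11 were lower in all 6 groups and 32 in 5. Age cannot be told apart from the numbering of the libraries, which was separate for the 2 ages.

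By role, and beside the 21% of all genes called lower, 29 of 46 large-subunit core genes fell (median -0.11), 11 of 30 small-subunit core genes (median -0.09), 2 of 6 paralogs, Rpl36al (-0.16 ± 0.04) and Rps27rt (-0.11 ± 0.04), and Rps19bp1 (-0.12 ± 0.04). Differences between roles, or between parents and paralogs, were not tested. Among the parents Rpl36a fell by 0.16 ± 0.04 and Rpl22 by 0.06 ± 0.02, with its paralog Rpl22l1 at -0.08 ± 0.04 (adjusted p = 0.0681). The paralog Rpl7l1 stood at -0.04 ± 0.02 beside -0.03 ± 0.03 for Rpl7, and Rpl3l at -0.13 ± 0.14 beside 0.06 ± 0.03 for Rpl3 (adjusted p = 0.0772). Rpl3 and Rps12 (0.11 ± 0.07, adjusted p = 0.2) were among the 4 members above 0. The 12 genes with most counts on copies had the largest median, -0.23, with 8 called, against -0.08 among the 55 with over 90% on the gene, with 27 called.

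Copies and single libraries moved this result in different ways. Of 87 copies tested as genes of their own, 43 were called lower at 10 months and 2 higher (median -0.26), beside the 21% of all genes called lower. With the counts of copies added, 44 members were called lower, 39 of them among the first 43, but Rpl10 stood at -0.004 ± 0.03 (adjusted p = 0.93), while its copy Rpl10-ps3 was higher at 10 months (0.14 ± 0.04, adjusted p = 0.0058). Rpl27 was then at -0.13 ± 0.04 (adjusted p = 0.0043), Rpl10a at -0.09 ± 0.03 (adjusted p = 0.0188) and Rpl13 at -0.15 ± 0.04 (adjusted p = 0.0019). Without the 12 far libraries, 11 of which were at 6 months, 14 members were called lower, all among the 43, 4 were called higher (Rpl3, Rps12, Rps14 and Rps4x) and the median was -0.006. In that fit 3294 of 17623 genes, 18.7%, were called, 9.3% lower and 9.39% higher, beside the 18 of 83 members. The 11 far libraries of 6 months had core means from 6.42 to 7.16, above the median of 6.28 at that age. They were chosen on the principal component of all genes, and leaving them out lowered the 6-month level. The core mean at 6 months averaged 6.36 over 48 libraries and 6.26 over the 37 not far. At 10 months it averaged 6.26 over 48 libraries and 6.25 over the 47 not far. Rpl27 (-0.24 ± 0.04), Rpl13 (-0.14 ± 0.02), Rpl10 (-0.28 ± 0.06) and Rpl10a (-0.12 ± 0.04) were still called. Leaving out 1 library at a time gave 29 to 54 called members. The fewest, 28 lower and 1 higher of 83, came without Q20 male 4 at 6 months. In that fit 38.7% of all genes were called, 19.3% lower. The most came without Q92 female 2 at 10 months, all lower.

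**Figure D5:**
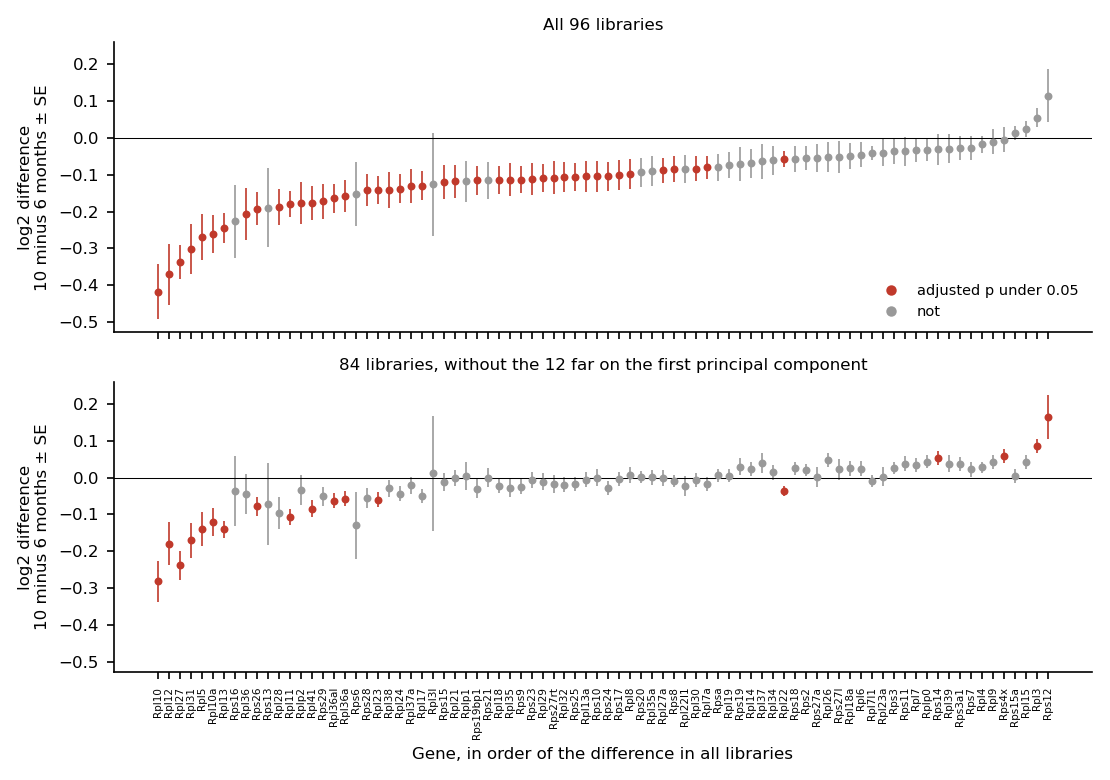
Fitted log2 difference, 10 minus 6 months, with its SE for 82 members, in all 96 libraries (upper) and in 84 libraries without the 12 far on the first principal component (lower). Red marks an adjusted p under 0.05: 43 members, all lower, in the upper panel, and 14 lower and 4 higher in the lower panel.

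The counts of other lists stand beside the 41.3% of all genes called between the ages, 21% lower. Among the ribosomal proteins named otherwise Fau fell (-0.35 ± 0.07), with Rack1 at -0.02 ± 0.03. Of 77 mitochondrial ribosomal protein genes 41 fell and 0 rose (median -0.08), with Mrpl24 at -0.13 ± 0.03 and Mrps24 at -0.21 ± 0.04. Of 28 biogenesis factors 14 fell and 3 rose (median -0.05), among them the snoRNP proteins Nop56 (-0.15 ± 0.02) and Fbl (-0.19 ± 0.03). Of 35 initiation and elongation factors 10 fell and 5 rose, with Eif5b at -0.18 ± 0.02 and Eif2s3x at 0.11 ± 0.01, and of 16 TOP messages 7 fell and 3 rose. Of 14 regulators 3 rose and 2 fell, with Mtor at 0.10 ± 0.03 and Rps6kb2 at -0.23 ± 0.04. Beside these, 6 of 6 microglial markers (median 0.18) and 6 of 10 choroid plexus markers (median 0.87) were called higher at 10 months, and 5 of 8 granule neuron and 5 of 10 oligodendrocyte markers were called lower. Their part in the result was not tested.

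Female and male libraries did not differ by the test. The members' median, female minus male, was 0.01, with 65 of 83 higher. By edgeR or limma 0 members were called, where edgeR called 948 of 17384 genes, 5.45%. At an unadjusted p under 0.05 there were 0 members, against 19.6% of all genes. Without Q92 female 2 at 10 months the median turned to -0.006, with 55 of 83 lower, and without the wild type male 4 of Q20 cages at 6 months it was 0.03. Rpl3 (0.04 ± 0.03, adjusted p = 0.401) and Rpl22 (0.03 ± 0.02, adjusted p = 0.431) had the smallest p. The 4 X-linked members stood at -0.05 ± 0.08 for Rpl10, 0.03 ± 0.04 for Rpl36a, 0.006 ± 0.04 for Rpl39 and 0.03 ± 0.03 for Rps4x.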

How the data were processed

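Cerebellar messenger RNA was measured in 96 libraries. Per the labels' protocols, total RNA from frozen tissue was taken with the miRNeasy kit and enriched before standard Illumina library preparation. CASAVA 1.8.2 is named in the submitters' processing notes; for the aligner, quantifier, annotation, build and strandedness, no source used here gives a name. The authors deposited estimated counts per gene (81.6% of the values were whole), which were rounded, and FPKM per gene, used for levels and for limma. Gene names come from GENCODE M21 on GRCm38 and start-site windows from RefSeq GRCm38.p6.

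Within each age a negative binomial model with 6 groups of genotype and housing and with sex was fitted to 48 libraries by edgeR 4.0.16 (R 4.3.3; TMM; filterByExpr with a minimum count of 10), and the slope was fitted to the 32 knock-in libraries. Age, its interaction with genotype and sex were fitted to all 96. Calls are quasi-likelihood tests with Benjamini-Hochberg adjusted p under 0.05 over all genes tested, and the SE is the log2 difference divided by the square root of F. Log2 CPM used a prior count of 2. The procedure was tested on simulated data. Alternatives included DESeq2 1.42.0, limma 3.58.1, sva 3.50.0, the share of mitochondrial counts, omission of each library or of the 12 far libraries, and, chosen after seeing the data, copies added. Depth is the library total; intervals from counts would cover counting error only.

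The members and lists were chosen with earlier results of these data known. Named are the 6 highest and 6 lowest members by FPKM, up to 4 called members per direction, the 2 of smallest p where none was called, the 5 extremes of covariation and of deviation, paralogs with parents, the 2 genes of smallest p in each list for Q140 against Q20, and the 8 closest other genes. The list genes named for age have the smallest p or were chosen after their values were seen. A few genes that the rule picks are not reported here.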

Additional observations from a re-analysis of the deposited data

Results flagged for a closer look

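Several libraries stood apart from the other 7 of their group by Dixon's criterion, which chance meets in about 1 in 20 groups; 12 groups were examined for each measure. For the mean log2 CPM of the core genes these were Q140 female 4 at 6 months (6.71, the others 6.15 to 6.33), Q20 male 4 at 6 months (7.13, the others 6.26 to 6.65), Q92 female 2 at 10 months (6.91, the others 6.19 to 6.38) and the wild type male 4 of Q20 cages at 6 months (7.16, the others 6.21 to 6.51). All 4 were the highest of their group.

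The same libraries stood apart for single members in CPM. Rpl27 was 6.81 in Q92 female 2 (the others 5.28 to 5.90) and 13.4 in the wild type male 4 (6.27 to 8.16). Rpl13 was 141.3 in Q140 female 4 (88.8 to 113), 189.5 in Q20 male 4 (95.9 to 137), 131 in Q92 female 2 (82.7 to 97.7) and 195 in the wild type male 4 (86.6 to 125). Rpl10 was 95.8 in Q140 female 4 (30.3 to 41.0) and 51.7 in Q20 male 4 (31.9 to 40.03). Rpl10a was 40.9 in Q140 female 4 (19.7 to 27.8) and 39.2 in Q20 male 4 (22.6 to 30.2).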

How the results depend on the processing

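Of 306 alternatives to the main values, 297 kept the direction and the side of the threshold or stayed within the spread. The spread was the SD between libraries, 0.22 at 6 months, 0.12 at 10 months and 0.17 over both ages. It was about as large as the medians judged or larger, so a median that fell to near 0 could still count among the 297. The median between ages did so, at -0.10 in the main fit and -0.006 without the far libraries. The 297 therefore do not show that these medians were stable. The median of Q92 against Q20 at 6 months was -0.026 without the far libraries and -0.017 with surrogate variables. In Q140 against Q20 at 10 months 1 of 83 members was called without the far libraries, where 756 of 17082 genes, 4.43%, were called. With the mitochondrial share as a covariate 1 member was called, beside 925 of 17783 genes. In Q92 against Q20 at 10 months 1 was called with the mitochondrial share (median -0.065), beside 27 of 17783 genes. With surrogate variables 1 was called, beside 84 of 17783 genes. Between ages 18 of 83 members were called without the far libraries, where 18.7% of all genes were called. By counts per kilobase 3 of the 6 highest members were shared. Leaving out 1 library gave 0 to 5 called members in Q140 against Q20 at 6 months, 0 to 66 for the slope at 6 months and 0 to 1 in Q140 against Q20 at 10 months. That last call came without Q92 female 2, the only far library at 10 months, so it is the same fit as without the far libraries. The 5 and the 66 came without Q140 female 4, where 4.85% and 24.1% of all genes were called.

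Single genes turned as follows. With copies added Rpl10 in Q50 at 6 months was -0.0005, Rpl10a in Q92 at 10 months 0.027, Rpl27a in Q92 at 10 months 0.0058 and Rps13 in Q50 at 10 months -0.011. Rpl10 in Q50 was -0.050 with surrogate variables, Rps27a in Q20 at 6 months -0.0007 without the far libraries, and Rpl22 between sexes -0.0039 with the mitochondrial share. Apart from the copies, the cause was not tested. With the replicate number as a block 43 members were called between ages (median -0.10) and no other call changed; correlations of same-numbered libraries ran from -0.469 to 0.713, with medians by number from -0.0486 to 0.115, and were not all above 0.1, so the numbers were not taken to pair the libraries.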
